A study of Mus musculus and Homo sapiens with 67 samples.

Results

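AP-1 is a transcription factor made of a pair of subunits, and 8 genes that encode its subunits are described here: FOS, FOSB, FOSL1 and FOSL2 of the FOS family, JUN, JUNB and JUND of the JUN family, and ATF3. They were chosen by gene symbol, ignoring case, in 4 expression tables, and all 8 were found among the 60564 genes of the human tables and the 55335 genes of the mouse tables.

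A FOS protein binds DNA as part of a pair, most often with a JUN protein, JUN proteins also pair with one another, and ATF3 pairs with JUN proteins or with itself. RAS signalling through ERK drives transcription of FOS within minutes of a stimulus and of FOSL1 (FRA-1) over a longer time, JUN N-terminal kinases act on JUN, and ATF3 is induced by cell stress. In pancreatic cancer AP-1 is best known for genes of invasion and wound-like programmes.

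The libraries come from pancreatic cancer models given tazemetostat, an inhibitor of the histone methyltransferase EZH2, RMC-6236, an inhibitor of active RAS, both drugs together (the combination), or the solvent alone (control). PSN1 and SW1990 are established human lines, KPC cells are a mouse line, and KPC tumours were grown in the pancreas of mice. Each cell line has 3 libraries in each of 4 arms, with DMSO as its control, and the tumours have 4 libraries in each arm, with vehicle as their control, so that 52 libraries were used. Column headers of the tumour table name the line KPC1199, those of the cell table only KPC, so whether both are the same line is not stated. Doses, treatment times, the age and strain of the mice and the alleles of the KPC line are not stated in the labels either, and the labels do not say that cell libraries came from separate cultures, so that p-values there measure a spread that may be technical.

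Values are the deposited FPKM, fragment counts scaled by gene length and by library total. They do not show how many reads a library had, its depth is therefore unknown, and precision was read from the spread within an arm. Between 11489 and 13414 genes per library reached 1 FPKM, and libraries of one arm correlated at 0.9939 or more in cells and at 0.9594 or more in tumours. All 5 epithelial markers were at 1 FPKM or more in every arm of all 4 tables. Changes are given in log2 units of FPKM + 1 with the standard error of a limma fit, a scale that understates changes of genes near or below 1 FPKM. A gene is said to rise or fall where its p, adjusted over all genes tested in that table, was under 0.05. To be tested, a gene had to reach 1 FPKM in 3 or more libraries of a cell line, or in 4 or more tumours. All 8 genes passed this filter in PSN1 cells and tumours, and FOSB (Fosb in mouse) did not pass in the other tables, where its arm means were 0.170 to 0.223 FPKM in SW1990 cells and 0.470 to 0.736 FPKM in KPC cells. The 3 treated arms of a table share its control libraries.

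**Figure D1:**
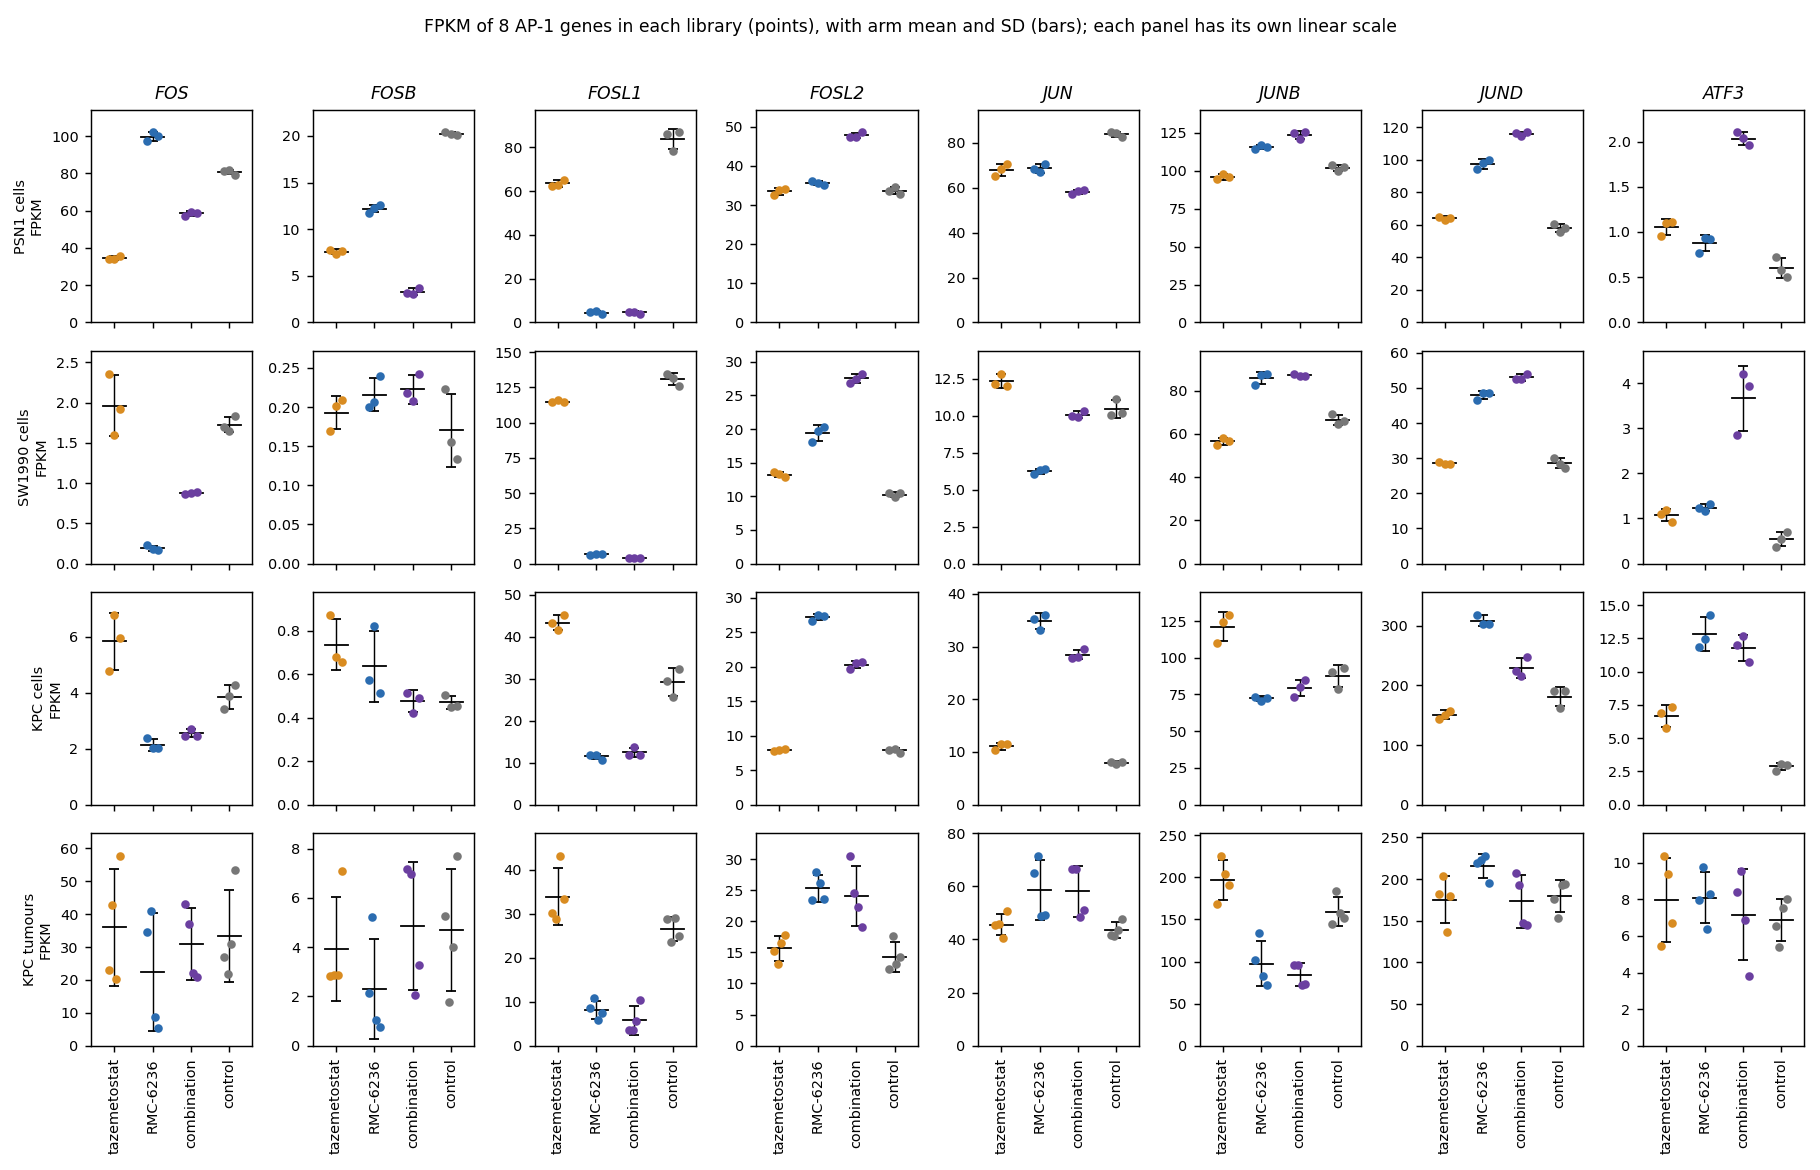
FPKM (y axis, linear from 0, a scale of its own in each panel) of the 8 AP-1 genes in tazemetostat, RMC-6236, combination and control libraries (x axis); points are libraries, and bars are the arm mean and SD (n = 3 in cells, 4 in tumours). The RMC-6236 and combination points of FOSL1 lie below the control points in all 4 tables, and those of FOSL2 lie above them.

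RMC-6236 against control asks what RAS inhibition does to AP-1 transcripts, and the answer differed by subunit. FOSL1 fell in all 4 tables, JUND rose in the 3 cell lines, and FOS, JUN and JUNB moved in different directions in different models. FOSL2 also rose in all 4 tables, but in PSN1 by no more than the median of all genes there (0.08 for both). In PSN1 cells all 8 genes passed the test (5 higher, 3 lower), where 80.4% of all genes (45.8% higher, 34.6% lower) did. All 7 tested genes passed in SW1990 cells (4 higher, 3 lower), where 72.4% of all genes (30.7% higher, 41.7% lower) did, and in KPC cells (4 higher, 3 lower), where 73.7% of all genes (37.9% higher, 35.8% lower) did. Tumours had 4 of 8 genes called (2 higher, 2 lower), against 39.4% of all genes (20.3% higher, 19.2% lower). With most genes called in the cell lines, these counts say little about AP-1. The sizes of the changes are given instead, with ranks among all genes for the most extreme. Other ranks were less extreme: in PSN1 JUND ranked 1598, FOS 4491, ATF3 5137 and JUNB 5635 from the top of 13358 genes. Fosl1 of KPC cells ranked 339 from the lowest of 12567 genes. Of the genes called in SW1990 cells 42.4% were higher as deposited and 53.4% after the libraries were rescaled by their median ratio, and each of the 7 AP-1 genes kept its direction.

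FOSL1, the FOS family member best known as a target of sustained ERK signalling, fell most. PSN1 cells given RMC-6236 held it at 4.72, 5.17 and 3.76 FPKM, against 85.9, 78.5 and 86.8 FPKM in control cells. SW1990 cells had 5.79, 6.85 and 7.08 FPKM with RMC-6236 and 135, 132 and 126 FPKM in control. No control library of either line was below 78.5 FPKM and no RMC-6236 library was above 7.08 FPKM, so the arms lie far apart. The change was -3.94 ± 0.10 log2 units in PSN1 (limma adjusted p = 1.6e-11), which is the lowest of all 13358 genes tested there. It was -4.13 ± 0.06 in SW1990 (adjusted p = 1.2e-14), the second lowest of 12913 genes. The difference between the lines, 0.19 ± 0.13, did not pass the test (adjusted p = 0.21), but it did without PSN1 RMC-6236 library 3 (0.29, adjusted p = 0.02).

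Mouse Fosl1 fell by less. In KPC cells it was 11.9, 11.9 and 10.7 FPKM with RMC-6236, against 29.4, 25.7 and 32.4 FPKM in control. Tumours held it at 8.54, 10.8, 5.96 and 7.54 FPKM with RMC-6236 and at 28.8, 23.6, 29.1 and 25.1 FPKM with vehicle. The arms do not overlap in either table. The change was -1.27 ± 0.08 in cells (adjusted p = 1.3e-08) and -1.61 ± 0.25 in tumours (adjusted p = 0.00021), where Fosl1 ranked 54 from the lowest of 13545 genes. The effect in tumours minus that in cells was -0.34 ± 0.25 (adjusted p = 0.27), which does not pass.

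Markers of other cells moved with these arms. Summed FPKM of 8 fibroblast markers was 3016 to 4036 per tumour with RMC-6236 and 3339.7 to 3931 with the combination, against 859 to 1168 with vehicle, and 7 macrophage markers summed to 1081 to 1548 and 1408 to 1951, against 423 to 544 with vehicle. The 5 epithelial markers summed to 1410.1 to 1947 with RMC-6236 and 817 to 1349 with the combination, against 3063 to 3784 with vehicle. Every marker of these 3 lists averaged at least 1 FPKM in each tumour arm. Their part in the tumour changes of Fosl1 and of every other gene below, listed genes included, was not tested. The same holds for every difference of effect between tumours and KPC cells. In bulk tissue fewer cells of a type and less RNA per cell cannot be told apart. In cultured KPC cells the same fibroblast list summed to 67.1 to 68.6 FPKM with RMC-6236 and 41.5 to 42.5 FPKM in control, with 5 and 4 of 8 markers at 1 FPKM or more and Dcn and Lum below 0.1 FPKM in both arms. The macrophage list there summed to 9.44 to 10.7 FPKM with RMC-6236 and 14.9 to 15.4 FPKM in control, with 2 of 7 markers at 1 FPKM or more in each arm and Adgre1, Csf1r, C1qa, C1qb and Lyz2 below 0.1 FPKM. Tazemetostat tumours had 609 to 1321 for fibroblast, 387 to 608 for macrophage and 2779 to 4945 for epithelial markers. Combination tumours also stood apart from vehicle tumours, without overlap, in 5 acinar markers (61.3 to 2320.0 FPKM with the combination, against 5.06 to 28.6 with vehicle), 5 neutrophil markers (35.3 to 187, against 6.79 to 28.3), 5 endothelial markers (16.5 to 26.2, against 6.08 to 11.8), 6 T cell markers (2.38 to 6.08, against 0.491 to 1.57), 3 adipocyte markers (2.82 to 47.5, against 0.569 to 0.893) and 3 erythroid markers (41.2 to 108, against 17.2 to 28.9). Their part in the tumour changes with the combination, of Fosl1, Fosl2, Jun, Junb or any other gene, was not tested.

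FOSL2 (FRA-2), which pairs with JUN proteins at the same DNA elements, rose where FOSL1 fell. With RMC-6236 SW1990 cells held it at 18.1, 19.8 and 20.3 FPKM, against 10.5, 9.89 and 10.4 FPKM in control, a change of 0.85 ± 0.05 (limma adjusted p = 1.7e-09). In KPC cells Fosl2 was 26.7, 27.6 and 27.3 FPKM with the drug and 7.93, 8.11 and 7.55 FPKM without it. The arms are far apart in both lines, and the KPC change of 1.67 ± 0.03 (adjusted p = 4e-13) ranked 49 from the top of 12567 genes. Tumours had 23.5, 27.9, 26.2 and 23.6 FPKM with RMC-6236 and 12.3, 17.6, 13.1 and 14.2 FPKM with vehicle, without overlap (0.79 ± 0.13, adjusted p = 0.00036). The rise in PSN1 cells was small, 36.02, 35.7 and 35.1 FPKM with RMC-6236 against 33.6, 34.7 and 32.8 FPKM in control (0.08 ± 0.03, adjusted p = 0.014), and it did not pass without control library 3 (adjusted p = 0.068) or with rescaled libraries (0.05, adjusted p = 0.07). That PSN1 change ranked 6665 from the top of 13358 genes, whose median change was also 0.08. The effect on FOSL2 was lower in PSN1 than in SW1990 cells (PSN1 minus SW1990 -0.78 ± 0.05, adjusted p = 1.3e-11) and lower in tumours than in KPC cells (tumours minus cells -0.88 ± 0.13, adjusted p = 3.7e-06).

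FOS, the immediate early gene of the family, went opposite ways in the human lines. PSN1 cells had 97.5, 102 and 99.9 FPKM with RMC-6236, against 81.2, 81.7 and 79.4 FPKM in control, so FOS stayed abundant and was 0.30 ± 0.02 log2 units higher (limma adjusted p = 1.3e-07). SW1990 cells hold little FOS, 0.228, 0.175 and 0.167 FPKM with RMC-6236 and 1.70, 1.65 and 1.83 FPKM in control, and it fell by 1.20 ± 0.08 (adjusted p = 1.1e-08). At these low levels the size depends on the number added before the log, and with 0.1 in place of 1 the change in SW1990 was -2.66. The difference of the effects, PSN1 minus SW1990, was 1.50 ± 0.08 (adjusted p = 1.2e-13), and 2.97 with 0.1 added. Mouse Fos fell in KPC cells, to 2.37, 2.03 and 2.01 FPKM with the drug against 3.42, 3.88 and 4.27 FPKM in control (-0.63 ± 0.10, adjusted p = 7.5e-05).

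FOSB, the immediate early member closest to FOS, could be tested in PSN1 cells and tumours. In PSN1 it fell to 11.8, 12.3 and 12.6 FPKM with RMC-6236, against 20.4, 20.2 and 20.1 FPKM in control (-0.68 ± 0.05, limma adjusted p = 6.1e-08), while FOS in the same libraries was higher. In tumours neither Fos nor Fosb passed. Tumour Fos was 34.5, 41.1, 8.80 and 5.47 FPKM with RMC-6236 and 26.9, 21.8, 30.9 and 53.6 FPKM with vehicle (-0.89 ± 0.55, adjusted p = 0.22). Of the RMC-6236 libraries, 1 and 2 lie among the controls and 3 and 4 lie below every other library of the table. Fosb was 2.14, 5.21, 1.06 and 0.778 FPKM with RMC-6236, against 5.27, 1.76, 4.01 and 7.72 FPKM with vehicle (-0.85 ± 0.45, adjusted p = 0.15), with overlap between the arms, and without RMC-6236 library 2 it was -1.21 (adjusted p = 0.04).

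Nr4a1, another immediate early gene, had the highest correlation with Fos of the non-member genes ranked over the 28 mouse libraries (r = 0.858). These tumours are among those libraries, so its agreement with Fos here is part of that ranking and no separate support. Nr4a1 was 8.89, 11.5, 4.73 and 4.46 FPKM in the RMC-6236 libraries and 11.1, 10.7, 10.6 and 12.3 FPKM in the vehicle libraries. Libraries 3 and 4 of the RMC-6236 arm were the lowest pair of the 16 tumours for both Fos and Nr4a1.

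**Figure D2:**
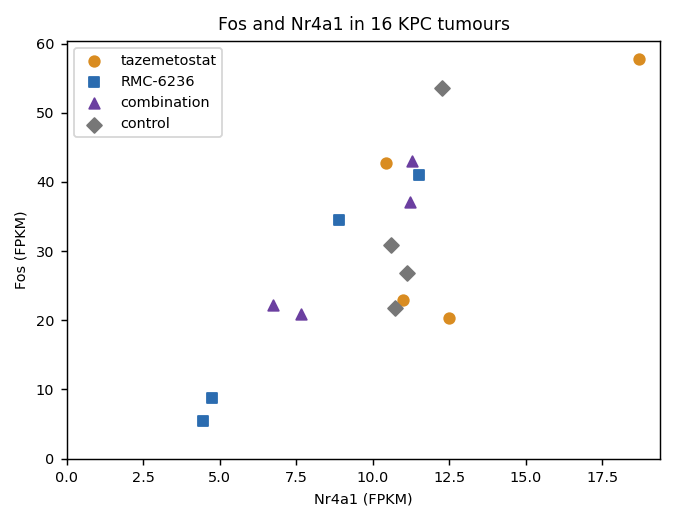
Fos (y axis, FPKM) against Nr4a1 (x axis, FPKM) in the 16 KPC tumours; each point is a tumour, and colour and shape give its arm. Within the RMC-6236 arm 2 tumours sit at 5.47 and 8.80 FPKM of Fos and the other 2 at 34.5 and 41.1 FPKM, and the same pairs are low and high in Nr4a1. Nr4a1 is the gene that correlated most with Fos in a ranking over the mouse libraries, these tumours included.

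JUN, the member of the JUN family that is most potent in activating transcription, fell in the human lines and rose in the mouse tables. PSN1 had 68.5, 66.8 and 70.4 FPKM with RMC-6236, against 84.6, 84.3 and 82.4 FPKM in control (-0.28 ± 0.03, limma adjusted p = 1.1e-06), and SW1990 had 6.02, 6.30 and 6.36 FPKM with RMC-6236, against 10.03, 11.1 and 10.2 FPKM in control (-0.66 ± 0.05, adjusted p = 2.8e-08). In KPC cells Jun rose to 35.3, 33.2 and 36.1 FPKM with RMC-6236, against 8.15, 7.73 and 8.06 FPKM in control, and the arms are far apart. That change, 1.997 ± 0.05 (adjusted p = 8.7e-13), ranked 16 from the top of 12567 genes. In tumours Jun was 65.00, 71.6, 49.01 and 49.3 FPKM with RMC-6236 and 41.8, 41.1, 43.4 and 47.7 FPKM with vehicle, and the lowest RMC-6236 tumour lies just above the highest vehicle tumour. The rise of 0.41 ± 0.13 (adjusted p = 0.022) did not pass without control library 1 or 2 or RMC-6236 library 1 or 2 (adjusted p 0.05 to 0.069) or with no filter on low genes (adjusted p = 0.055), and it was smaller than in cells (tumours minus cells -1.59 ± 0.13, adjusted p = 4.9e-10). Between the human lines the fall was smaller in PSN1 (PSN1 minus SW1990 0.38 ± 0.05, adjusted p = 2.1e-06), and with rescaled libraries this difference was 0.24.

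JUND, the JUN protein usually present in resting cells, rose in every cell line. It was 94.4, 98.3 and 99.99 FPKM with RMC-6236 in PSN1, against 60.4, 55.9 and 58.00 FPKM in control. SW1990 had 46.7, 48.6 and 48.7 FPKM with RMC-6236 and 29.99, 28.4 and 27.2 FPKM in control, and KPC cells had 319, 303 and 304 FPKM with it and 189.9, 163 and 191 FPKM without. None of these arms overlap. The changes were close in size, at 0.74 ± 0.03 in PSN1, 0.73 ± 0.04 in SW1990 and 0.77 ± 0.06 in KPC cells (limma adjusted p = 7.6e-11, 1e-09 and 3.7e-07). The difference between the human lines was 0.01 ± 0.05 as deposited (adjusted p = 0.91) and -0.14 with rescaled libraries (adjusted p = 0.03). Tumour Jund was 219, 222, 228 and 195 FPKM with RMC-6236 and 176, 154, 193 and 194 FPKM with vehicle (0.27 ± 0.13, adjusted p = 0.12), which did not pass in the fit of all arms but did in a fit of the compared arms alone (adjusted p = 0.031), and the effect was below that in KPC cells (tumours minus cells -0.50 ± 0.15, adjusted p = 0.0072).

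JUNB, which can oppose JUN at some promoters, rose in the human lines and fell in the mouse tables, the reverse of JUN. Human and mouse tables were not tested against each other. RMC-6236 libraries of PSN1 had 114, 117 and 115 FPKM, against 104, 99.9 and 102 FPKM in control, and those of SW1990 had 82.6, 86.96 and 87.5 FPKM, against 69.1, 64.7 and 65.7 FPKM in control. The rises were 0.18 ± 0.02 and 0.36 ± 0.03 (limma adjusted p = 4.4e-06 and 6.2e-07), both without overlap. KPC cells had 73.5, 70.6 and 72.8 FPKM with the drug and 90.6, 78.7 and 92.8 FPKM without it (-0.27 ± 0.07, adjusted p = 0.0051). Tumour Junb fell to 102, 133, 82.3 and 72.7 FPKM with RMC-6236, against 144, 183, 158 and 151 FPKM with vehicle (-0.73 ± 0.16, adjusted p = 0.0027). The fall in tumours exceeded that in cells (tumours minus cells -0.47 ± 0.18, adjusted p = 0.03), but that difference did not pass without tumour control library 2, tumour RMC-6236 library 3 or 4, or KPC cell control library 2 (adjusted p 0.068 to 0.10), or with equal weights for both tables (adjusted p = 0.064).

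ATF3, the stress-induced partner, rose in the 3 cell lines and not in tumours. KPC cells had 11.9, 12.4 and 14.3 FPKM with RMC-6236, against 2.54, 3.08 and 3.005 FPKM in control, far apart (1.84 ± 0.09, limma adjusted p = 1.4e-09), which ranked 28 from the top of 12567 genes. Levels in human cells were near 1 FPKM: 1.24, 1.17 and 1.31 FPKM with RMC-6236 and 0.377, 0.551 and 0.700 FPKM in control in SW1990 (0.54 ± 0.11, adjusted p = 0.00046), and 0.771, 0.935 and 0.927 FPKM with RMC-6236 and 0.726, 0.575 and 0.503 FPKM in control in PSN1 (0.23 ± 0.06, adjusted p = 0.0046). With 0.1 added before the log in place of 1 these became 1.09 and 0.49. The tumour values of 7.96, 9.78, 6.36 and 8.27 FPKM with RMC-6236 and 6.53, 5.42, 7.52 and 8.04 FPKM with vehicle overlap (0.21 ± 0.23, adjusted p = 0.5), and the effect was below that in KPC cells (tumours minus cells -1.63 ± 0.24, adjusted p = 5.6e-06).

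**Figure D3:**
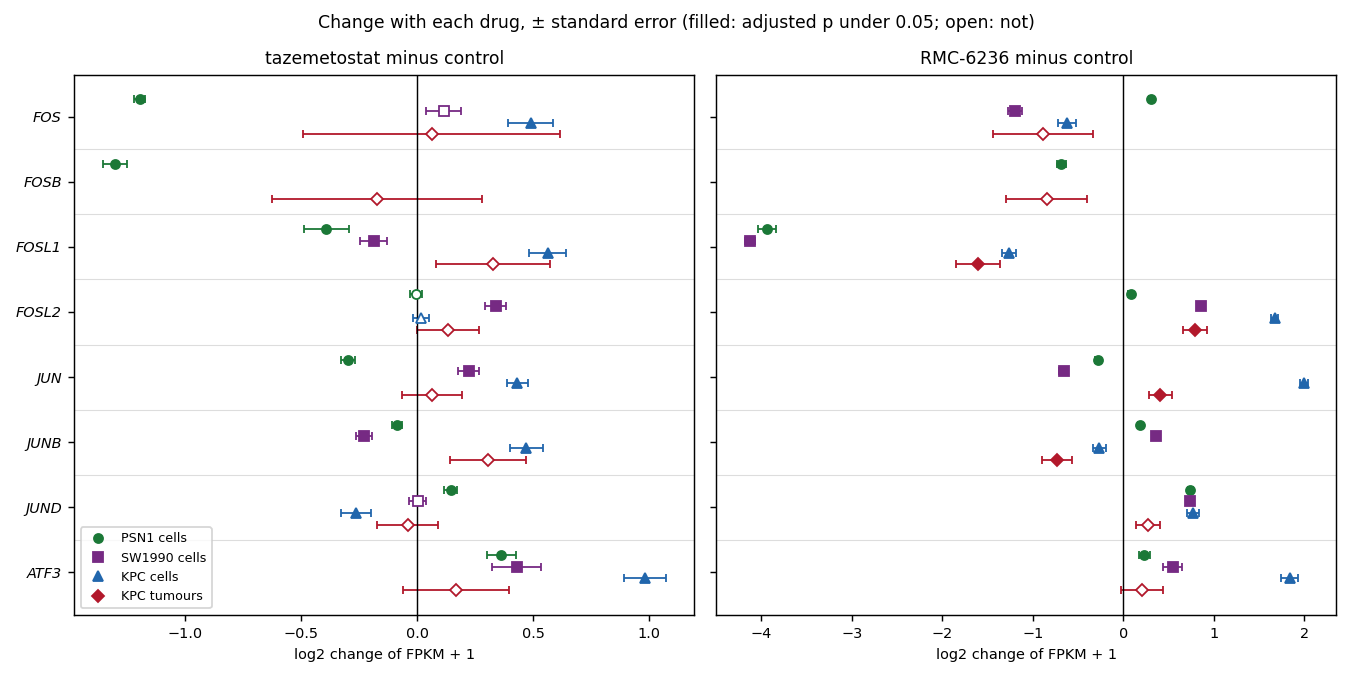
Change of the 8 genes in log2 units of FPKM + 1 (x axis), with tazemetostat minus control on the left and RMC-6236 minus control on the right, for 4 tables (colour and marker); bars are standard errors, and filled markers passed an adjusted p of 0.05. FOSL1 lies at -3.94 and -4.13 with RMC-6236 in the human lines, while Jun, Fosl2 and Atf3 of KPC cells lie between 1.67 and 1.997.

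Jun, Fosl2 and Atf3 rose most among the members tested in KPC cells given RMC-6236, while Fos fell. The mouse promoters of these 4 genes are shown, each a window of 300 bases around the gene's start, as RefSeq gives them on build GRCm38.p6. Promoters of 7 of the 8 members were matched by symbol, and Fosl1 is named only. Searched on both strands were TGANTCA (the shape of the AP-1 element), TGACNTCA (the shape of the longer element bound by ATF and JUN pairs) and TGACGT (the core of that element, which overlaps TGACNTCA where N is G), and capitals mark a match.
Jun, chr4:95052173-95052472, minus strand: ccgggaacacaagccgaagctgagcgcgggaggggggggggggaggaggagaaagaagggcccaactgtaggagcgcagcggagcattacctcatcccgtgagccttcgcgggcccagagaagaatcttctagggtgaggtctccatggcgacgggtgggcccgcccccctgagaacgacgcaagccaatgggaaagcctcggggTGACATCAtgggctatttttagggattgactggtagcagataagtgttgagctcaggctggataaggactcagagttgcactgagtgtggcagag
Fosl2, chr5:32136222-32136521, plus strand: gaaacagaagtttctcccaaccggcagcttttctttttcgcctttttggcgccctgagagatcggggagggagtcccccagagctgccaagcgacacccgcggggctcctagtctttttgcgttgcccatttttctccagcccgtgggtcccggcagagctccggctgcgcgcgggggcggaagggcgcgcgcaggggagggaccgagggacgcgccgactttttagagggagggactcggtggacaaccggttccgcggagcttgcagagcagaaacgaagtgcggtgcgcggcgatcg
Atf3, chr1:191183284-191183583, minus strand: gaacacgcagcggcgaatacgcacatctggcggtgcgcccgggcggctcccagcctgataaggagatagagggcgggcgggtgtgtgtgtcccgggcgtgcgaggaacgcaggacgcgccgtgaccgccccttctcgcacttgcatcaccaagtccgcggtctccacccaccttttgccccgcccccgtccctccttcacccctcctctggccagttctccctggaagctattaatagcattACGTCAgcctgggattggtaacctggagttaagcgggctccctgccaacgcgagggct
Fos, chr12:85473640-85473939, plus strand: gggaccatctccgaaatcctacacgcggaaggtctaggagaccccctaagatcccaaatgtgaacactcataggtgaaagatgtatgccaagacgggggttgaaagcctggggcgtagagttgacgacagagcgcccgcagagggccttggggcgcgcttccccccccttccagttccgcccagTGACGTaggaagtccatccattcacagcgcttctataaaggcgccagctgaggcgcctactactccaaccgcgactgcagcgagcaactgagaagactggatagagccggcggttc

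Jun holds TGACATCA, a match to TGACNTCA that starts 45 bases before the gene's start, and 8.83% of 32851 mouse promoters of this length hold such a match. Fos holds TGACGT at 66 bases before its start, and Atf3 holds it on the other strand, read here as ACGTCA, at 8 bases before its start, as do 7.51% of all promoters. Fosl2 holds none of the 3 in this window. TGANTCA, found in 7.81% of all promoters, was in none of the 7 windows. Jun, Fosl2 and Atf3 thus share no match among the 3 motifs in these windows, and these matches describe letters, not binding. The window of Jund, which also rose in KPC cells (0.77 ± 0.06), held no match either.

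Since all FOS proteins compete for JUN partners, the make-up of each family's transcripts was also measured, as a gene's share of the summed FPKM of its family. With RMC-6236 the FOS family sum was 152 ± 2.67 FPKM in PSN1, 26.4 ± 1.82 in SW1990, 41.5 ± 0.866 in KPC cells and 58.3 ± 22.5 in tumours, against 218 ± 3.04, 143 ± 4.34, 41.4 ± 3.25 and 78.9 ± 15.3 FPKM in the controls of the same tables (mean ± SD, n = 3 in cells and 4 in tumours). In SW1990 cells FOSL2 made up 73.6% ± 0.734 with RMC-6236 and 7.17% ± 0.320 in control, while FOSL1 made up 24.9% ± 0.919 and 91.5% ± 0.402 in those arms. KPC cells had the same order, with Fosl2 at 65.6% ± 1.56 with RMC-6236 and 19.1% ± 2.17 in control, and family sums closer than 1 SD. In PSN1 cells the leading member with RMC-6236 was FOS, at 65.6% ± 0.529 against 36.97% ± 0.896 in control, and FOSL1 was 2.99% ± 0.444 with RMC-6236 against 38.3% ± 1.62 in control. Tumours had Fosl1 at 14.9% ± 3.61 with RMC-6236 and 34.6% ± 6.56 with vehicle, and Fosl2 at 48.1% ± 16.9 with RMC-6236 and 18.8% ± 5.79 with vehicle.

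Within the JUN family, JUND took a larger share with RMC-6236 than in control in every table: 34.6% ± 0.494 against 23.8% ± 0.517 in PSN1, 34.3% ± 0.187 against 27.04% ± 0.595 in SW1990, 74.2% ± 0.514 against 65.5% ± 0.252 in KPC cells, and 58.4% ± 5.13 against 46.9% ± 4.19 in tumours. The share of JUNB was 41.03% ± 0.576 with RMC-6236 and 41.8% ± 0.309 in control in PSN1, and 25.9% ± 3.94 with RMC-6236 and 41.7% ± 4.57 with vehicle in tumours. The shares describe RNA per gene length and were not tested.

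**Figure D4:**
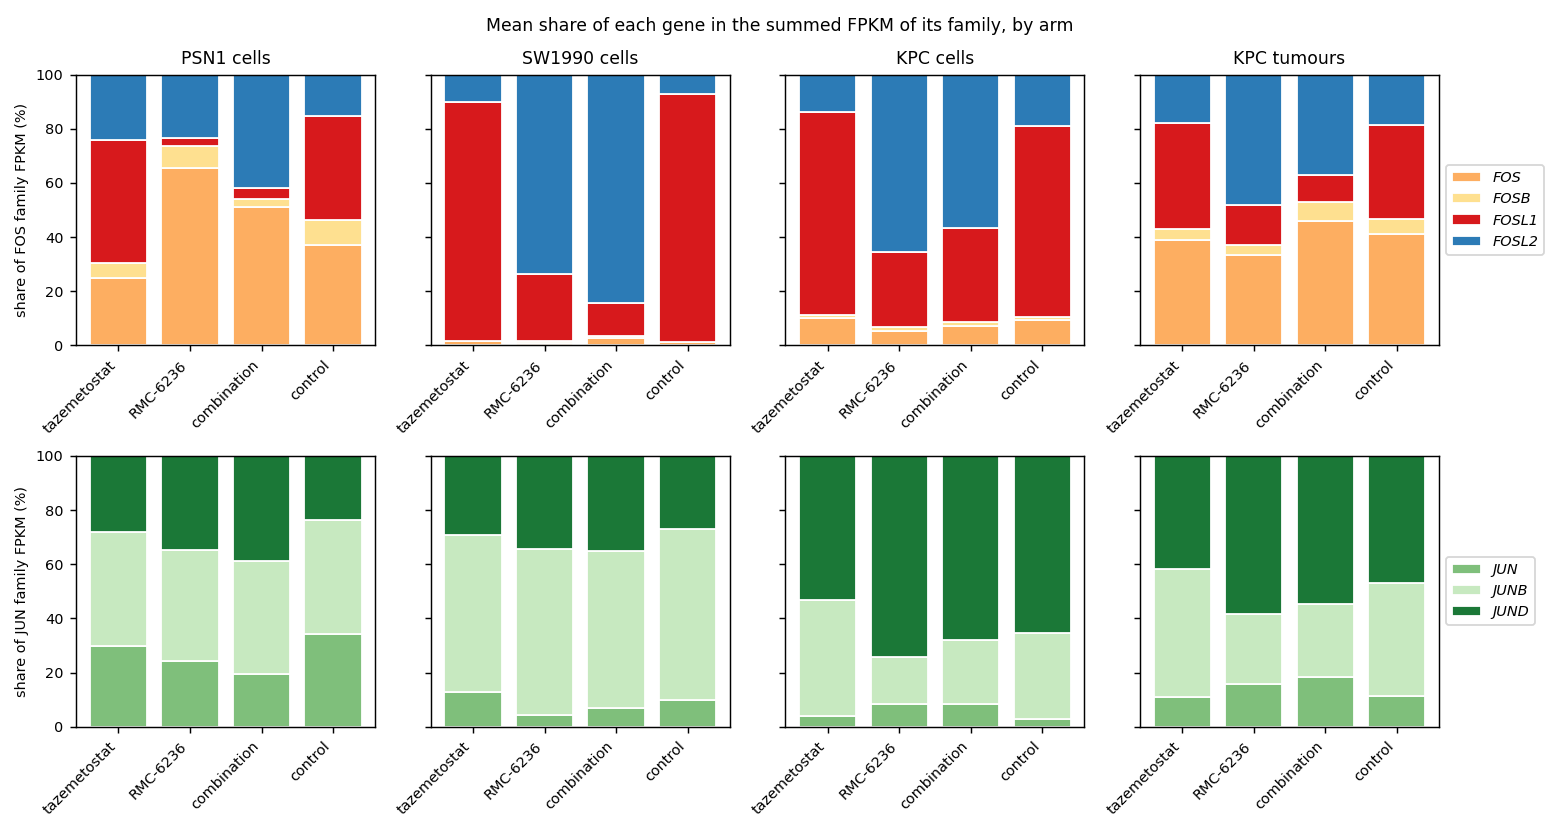
Mean share (y axis, percent) of each gene in the summed FPKM of the FOS family (top) and of the JUN family (bottom) in tazemetostat, RMC-6236, combination and control arms of the 4 tables. FOSL2 (blue) makes up 73.6% of the FOS family in SW1990 cells with RMC-6236 and 7.17% in control, and FOSL1 (red) makes up 24.9% and 91.5%.

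Tazemetostat against control asks what EZH2 inhibition does to the same genes. RNA of its target EZH2 averaged 15.3 ± 0.952 FPKM with tazemetostat and 15.8 ± 0.310 FPKM in control in PSN1, 12.9 ± 0.657 and 9.42 ± 0.373 FPKM in SW1990, 11.2 ± 0.271 and 11.8 ± 0.135 FPKM in KPC cells, and 6.57 ± 0.607 and 5.41 ± 0.965 FPKM in tumours (SD, n = 3 in cells and 4 in tumours), which does not measure the enzyme's activity. The clearest change was in PSN1 cells, where FOS and FOSB fell together. With tazemetostat FOS was 34.01, 34.3 and 35.6 FPKM, against 81.2, 81.7 and 79.4 FPKM in control, and FOSB was 7.78, 7.32 and 7.68 FPKM, against 20.4, 20.2 and 20.1 FPKM in control. Neither pair of arms overlaps. The changes were -1.20 ± 0.02 (limma adjusted p = 3.5e-12) and -1.31 ± 0.05 (adjusted p = 9.1e-10), ranked 7 and 5 from the lowest of 13358 genes. SW1990 cells held FOS at 2.36, 1.60 and 1.92 FPKM with tazemetostat and 1.70, 1.65 and 1.83 FPKM in control (0.11 ± 0.08, adjusted p = 0.28). The difference of effects, PSN1 minus SW1990, was -1.31 ± 0.08 (adjusted p = 5.1e-12). The SW1990 change passed without tazemetostat library 2 (0.20, adjusted p = 0.041).

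Of the 8 genes in PSN1, 7 passed (2 higher, 5 lower), against 46.0% of all genes (23.6% higher, 22.5% lower). FOSL1 was 62.4, 62.9 and 65.3 FPKM with tazemetostat and 85.9, 78.5 and 86.8 FPKM in control (-0.39 ± 0.10, limma adjusted p = 0.0068). JUN was lower by a similar amount (-0.30 ± 0.03) and JUNB by little (-0.09 ± 0.02), while ATF3 (0.36 ± 0.06) and JUND (0.14 ± 0.03) were higher. With 0.1 added before the log the ATF3 changes were 0.73 in PSN1 and 0.89 in SW1990, where it also rose. FOSL2 did not pass (-0.01 ± 0.03, adjusted p = 0.85). In SW1990 cells 5 of 7 genes passed (3 higher, 2 lower), against 37.5% of all genes (23.1% higher, 14.4% lower). ATF3 (0.43 ± 0.11), FOSL2 (0.34 ± 0.05) and JUN (0.22 ± 0.05) were higher, and JUNB (-0.23 ± 0.03) and FOSL1 (-0.19 ± 0.06) lower. The fall of FOSL1 lay near the threshold. It did not pass without control library 1 or 2 or any of the 3 tazemetostat libraries (adjusted p 0.053 to 0.077, with changes of -0.17 to -0.19). With no filter on low genes it did not pass either (adjusted p = 0.076).

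The human lines differed in the effect of tazemetostat on 5 of the 7 genes tested in both, against 33.7% of all genes. PSN1 minus SW1990 was -0.52 ± 0.05 for JUN (limma adjusted p = 5.8e-08), which fell in PSN1 and rose in SW1990, and -0.34 ± 0.05 for FOSL2 (adjusted p = 1.3e-05). For the effect of RMC-6236 the count was also 5 of 7, against 60.5% of all genes. Tumours and KPC cells differed in the effect of RMC-6236 on 5 of 7 genes, against 54.4%, and in that of tazemetostat on 1 of 7, against 17.1%.

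In KPC cells Fos, Fosl1, Jun and Junb rose with tazemetostat, where they had fallen in PSN1 cells. With tazemetostat Atf3 was 6.90, 5.77 and 7.36 FPKM, against 2.54, 3.08 and 3.005 FPKM in control (0.98 ± 0.09, limma adjusted p = 3.4e-06), and Fosl1 was 43.3, 41.6 and 45.3 FPKM, against 29.4, 25.7 and 32.4 FPKM in control (0.56 ± 0.08, adjusted p = 0.00011). Both are without overlap. Fos (0.49 ± 0.10), Junb (0.47 ± 0.07) and Jun (0.43 ± 0.05) were higher by less and Jund was lower (-0.26 ± 0.06), so 6 of 7 genes passed (5 higher, 1 lower), where 44.1% of all genes (18.6% higher, 25.5% lower) passed. Fosl2 was 7.81, 7.97 and 8.13 FPKM with tazemetostat and 7.93, 8.11 and 7.55 FPKM in control (adjusted p = 0.71).

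No member passed in tumours given tazemetostat, where limma called 0% of all genes. At an unadjusted p under 0.05 there were 0 of 8 members and 1023 of 13545 genes. Fosl1 had the largest shift of the members, with 30.2, 28.8, 43.2 and 33.4 FPKM with tazemetostat and 28.8, 23.6, 29.1 and 25.1 FPKM with vehicle (0.33 ± 0.25, adjusted p = 0.79). The lowest tazemetostat value lies within the range of the vehicle tumours. The effect on Atf3 was below that in KPC cells (tumours minus cells -0.82 ± 0.24, adjusted p = 0.024), but not without tumour control library 3 or 4 or tumour tazemetostat library 1 or 4 (adjusted p 0.054 to 0.072), or with equal weights for both tables (adjusted p = 0.067).

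The combination against RMC-6236 asks what tazemetostat adds once RAS is inhibited. FOS and JUN were lower with the combination in PSN1 cells and higher in SW1990 cells. FOSB was lower in PSN1 cells and could not be tested in SW1990 cells. ATF3, FOSL2 and JUND were higher in both lines. For this comparison the difference between the lines was not tested. In PSN1 7 of 8 genes passed (4 higher, 3 lower), against 54.2% of all genes (24.1% higher, 30.1% lower). In SW1990 6 of 7 passed (5 higher, 1 lower), against 48.0% of all genes (29.8% higher, 18.3% lower). In KPC cells 3 of 7 passed (all lower), against 48.8% of all genes (20.3% higher, 28.5% lower), and in tumours 0 of 8, against 8.13% of all genes (5.16% higher, 2.97% lower). At an unadjusted p under 0.05 there were 2 of 8 members in tumours and 3010 of 13545 genes by limma. In a fit of the compared arms alone the count in KPC cells was 5 of 7, Fos and Junb being added.

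FOSB in PSN1 had the lowest level with the combination, 3.17, 3.004 and 3.73 FPKM, against 11.8, 12.3 and 12.6 FPKM with RMC-6236 alone (-1.62 ± 0.05, limma adjusted p = 5.6e-11), and the change ranked 8 from the lowest of 13358 genes. FOS was 57.1, 59.5 and 58.98 FPKM, against 97.5, 102 and 99.9 FPKM with RMC-6236 (-0.76 ± 0.02, adjusted p = 6.9e-11). FOSL2, by contrast, was 47.3, 47.4 and 48.5 FPKM, against 36.02, 35.7 and 35.1 FPKM with RMC-6236 (0.41 ± 0.03, adjusted p = 3.2e-08). None of these arms overlap. ATF3 (0.69 ± 0.06, and 1.13 with 0.1 added before the log), JUND (0.25 ± 0.03) and JUNB (0.10 ± 0.02) were higher and JUN lower (-0.23 ± 0.03). FOSL1, already low, was 4.93, 4.96 and 3.90 FPKM with the combination and 4.72, 5.17 and 3.76 FPKM with RMC-6236 (0.02 ± 0.10, adjusted p = 0.91), with overlapping arms.

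SW1990 cells given the combination had ATF3 at 2.84, 4.22 and 3.94 FPKM, against 1.24, 1.17 and 1.31 FPKM with RMC-6236 (1.05 ± 0.11, limma adjusted p = 3.7e-06). FOS was 0.862, 0.875 and 0.893 FPKM, against 0.228, 0.175 and 0.167 FPKM with RMC-6236 (0.66 ± 0.08, adjusted p = 1.2e-05), and with 0.1 added before the log the change was 1.76. JUN was 9.98, 9.93 and 10.3 FPKM, against 6.02, 6.30 and 6.36 FPKM with RMC-6236 (0.62 ± 0.05, adjusted p = 2.1e-07), close to its control values of 10.03, 11.1 and 10.2 FPKM (combination against control -0.05 ± 0.05, adjusted p = 0.37). FOSL1 was lower still, at 4.17, 3.72 and 4.13 FPKM against 5.79, 6.85 and 7.08 FPKM with RMC-6236 (-0.59 ± 0.06, adjusted p = 2.7e-06), without overlap. FOSL2 (0.49 ± 0.05) and JUND (0.14 ± 0.04) were higher. The rise of JUND did not pass with rescaled libraries (0.10, adjusted p = 0.075).

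In KPC cells Jund, Fosl2 and Jun, which rose with RMC-6236, were lower with the combination. Jund was 224, 215 and 247 FPKM with the combination and 319, 303 and 304 FPKM with RMC-6236 (-0.43 ± 0.06, limma adjusted p = 0.00018). Fosl2 was 19.7, 20.6 and 20.7 FPKM with the combination and 26.7, 27.6 and 27.3 FPKM with RMC-6236 (-0.40 ± 0.03, adjusted p = 1e-06), and Jun was 27.9, 28.04 and 29.5 FPKM with the combination and 35.3, 33.2 and 36.1 FPKM with RMC-6236 (-0.28 ± 0.05, adjusted p = 0.00023), each without overlap. Atf3 did not pass (-0.11 ± 0.09, adjusted p = 0.32). In tumours Fosl1 was 3.50, 3.58, 5.54 and 10.3 FPKM with the combination and 8.54, 10.8, 5.96 and 7.54 FPKM with RMC-6236 (-0.53 ± 0.25, adjusted p = 0.22). Tumour 4 of the combination arm is the highest of that arm, and without it the change was -0.82 (adjusted p = 0.021).

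The interaction, the combination's change minus the sum of the single-drug changes, was positive for ATF3 and JUNB in both human lines and negative for both in KPC cells. In PSN1 5 of 8 genes passed (4 higher, 1 lower), against 23.6% of all genes (9.80% higher, 13.8% lower). FOS (0.44 ± 0.04), FOSL2 (0.42 ± 0.04), ATF3 (0.33 ± 0.09) and JUNB (0.18 ± 0.03) were above the sum, and FOSB (-0.32 ± 0.07) was below it. In SW1990 5 of 7 passed (4 higher, 1 lower), against 15.2% of all genes (9.03% higher, 6.19% lower). ATF3 (0.62 ± 0.15), FOS (0.54 ± 0.11), JUN (0.40 ± 0.07) and JUNB (0.25 ± 0.05) were above the sum and FOSL1 (-0.41 ± 0.08) below it. The ATF3 interactions did not pass with 0.1 added before the log (PSN1 0.40, adjusted p = 0.14, and SW1990 0.58, adjusted p = 0.18), and in SW1990 not without the filter (adjusted p = 0.057). The SW1990 interaction of FOS was 1.60 with 0.1 added. JUND and FOSL1 in PSN1 passed with rescaled libraries (adjusted p = 0.039 for each), JUND without control library 2 and FOSL1 without RMC-6236 library 2 or combination library 3 (adjusted p 0.015 to 0.026), and in SW1990 JUND without control library 3 (adjusted p = 0.036).

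KPC cells had 5 of 7 genes called, all below the sum of the single-drug changes, against 25.8% of all genes (12.1% higher, 13.7% lower). Atf3 was lowest (-1.10 ± 0.13, limma adjusted p = 4.9e-05, ranked 42 from the lowest of 12567 genes): it was 6.68 FPKM with tazemetostat, 12.9 with RMC-6236, 11.8 with the combination and 2.88 in control (means, n = 3). Jun (-0.71 ± 0.06), Fosl1 (-0.46 ± 0.11), Fosl2 (-0.42 ± 0.05) and Junb (-0.34 ± 0.10) followed. Junb did not pass without control library 2, tazemetostat library 2 or 3, RMC-6236 library 1 or 3 or combination library 1 (adjusted p 0.052 to 0.068) or without the filter (adjusted p = 0.081), and Fos passed without tazemetostat library 1 (-0.43, adjusted p = 0.016). In tumours no member passed, against 1.86% of all genes (1.49% higher, 0.369% lower). At an unadjusted p under 0.05 there was 1 of 8 members and 1950 of 13545 genes by limma.

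**Figure D5:**
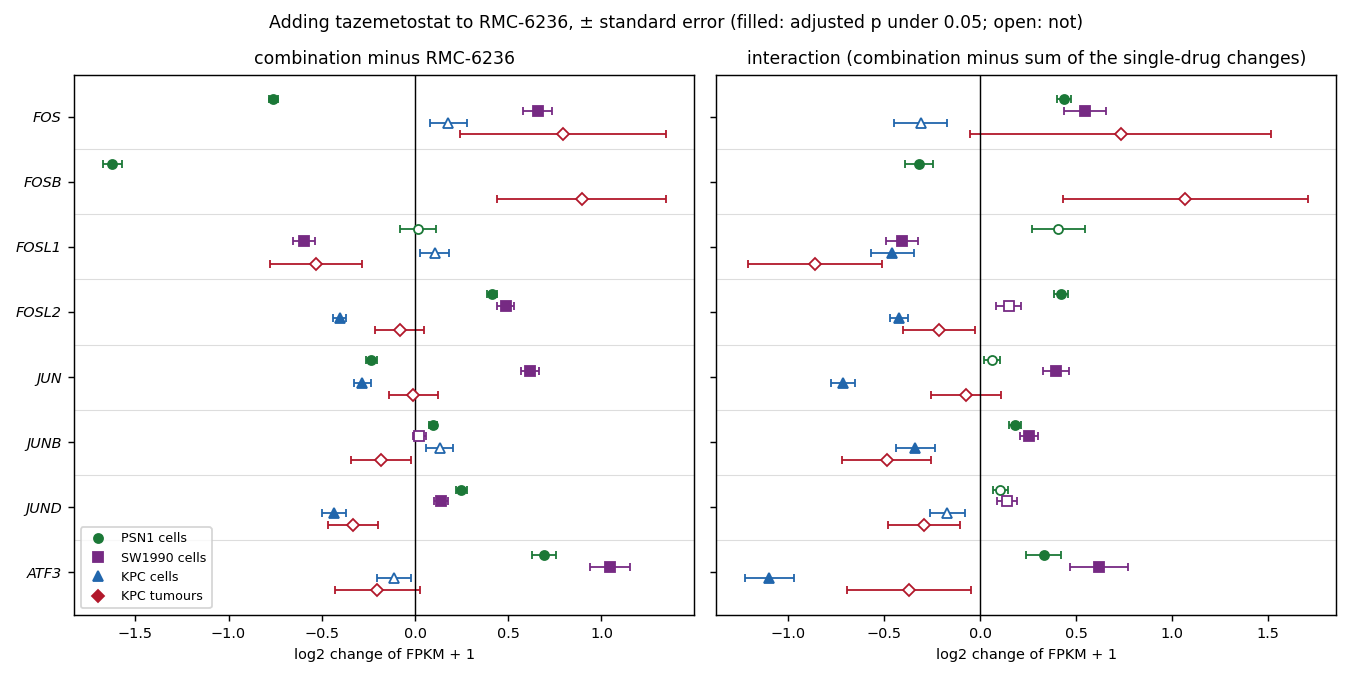
Change in log2 units of FPKM + 1 (x axis) of the 8 genes for the combination minus RMC-6236 (left) and for the interaction (right), in 4 tables (colour and marker); bars are standard errors, and filled markers passed an adjusted p of 0.05. ATF3 lies at 1.05 in SW1990 cells on the left, and its interaction lies at 0.33 and 0.62 in the human lines and at -1.10 in KPC cells.

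Set against control, the combination gave 8 of 8 genes called in PSN1 (4 higher, 4 lower), against 82.6% of all genes (45.5% higher, 37.1% lower), and 6 of 7 in SW1990 (4 higher, 2 lower), against 79.2% of all genes (38.3% higher, 40.9% lower). It gave 6 of 7 in KPC cells (4 higher, 2 lower), against 76.4% of all genes (37.8% higher, 38.7% lower), and 4 of 8 in tumours (2 higher, 2 lower), against 52.4% of all genes (26.7% higher, 25.7% lower). FOSL1 changed by -3.92 ± 0.10 in PSN1, -4.72 ± 0.06 in SW1990, -1.16 ± 0.08 in KPC cells and -2.14 ± 0.25 in tumours, the second lowest value of all genes in both human lines. FOSL2 rose in all 4 tables (0.49 ± 0.03, 1.34 ± 0.05, 1.27 ± 0.03 and 0.71 ± 0.13). Tumour Junb fell (-0.91 ± 0.16) and tumour Jun rose (0.40 ± 0.13, limma adjusted p = 0.018), a rise that did not pass without combination library 1 or 2 (adjusted p = 0.06 for each). KPC cell Junb did not pass (-0.13 ± 0.07), but did without control library 2 (-0.21, adjusted p = 0.014). Against tazemetostat alone the combination gave 8 of 8 genes called in PSN1 (5 higher, 3 lower), against 79.9% of all genes (43.8% higher, 36.1% lower), and 7 of 7 in SW1990 (4 higher, 3 lower), against 75.9% of all genes (33.6% higher, 42.3% lower). It gave 7 of 7 in KPC cells (4 higher, 3 lower), against 76.3% of all genes (39.0% higher, 37.3% lower), and 4 of 8 in tumours (2 higher, 2 lower), against 51.0% of all genes (24.7% higher, 26.3% lower). Jun in tumours was one of these (0.33 ± 0.13, adjusted p = 0.042): it did not pass without control library 1 or 3, tazemetostat library 1, 2 or 3 or combination library 1 or 2 (adjusted p 0.051 to 0.13), or without the filter (adjusted p = 0.084).

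Genes known as AP-1 targets, a list of 19 genes of proteases, their inhibitors, growth factors and cytokines among others, fell with RMC-6236 more often than they rose. With RMC-6236, in PSN1 1 of 14 rose and 13 fell, against 45.8% and 34.6% of all genes (median -1.36, against 0.08 over all genes), and in SW1990 3 of 15 rose and 11 fell, against 30.7% and 41.7% of all genes (median -0.94, against -0.06 over all genes). In the mouse tables, in KPC cells 4 of 14 rose and 8 fell, against 37.9% and 35.8% of all genes (median -0.45, against 0.02 over all genes), and in tumours 2 of 16 rose and 7 fell, against 20.3% and 19.2% of all genes (median -0.45, against 0.01 over all genes). MMP1, a collagenase, averaged 1.57 FPKM with RMC-6236 and 20.6 FPKM in control in PSN1 (-3.08 ± 0.07). The EGFR ligand HBEGF fell in SW1990 (-2.53 ± 0.06) and its mouse counterpart in tumours (-1.22 ± 0.17), and Ccnd1, cyclin D1, fell in KPC cells (-2.12 ± 0.03) and tumours (-1.35 ± 0.26). Some members rose: the stromelysin Mmp10 in KPC cells (1.20 ± 0.10), and in tumours the stromelysin Mmp3 (1.40 ± 0.34) and the protease inhibitor Timp1 (1.20 ± 0.14). In tumours the part of the cell type marker shifts given above was not tested for this list or the lists below.

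With tazemetostat more of this list rose than fell in PSN1, where FOS, FOSB, FOSL1 and JUN fell. By count, in PSN1 9 of 14 rose and 4 fell, against 23.6% and 22.5% of all genes (median 0.43, against -0.0036 over all genes). MMP1 averaged 236 FPKM with tazemetostat and 20.6 FPKM in control (3.46 ± 0.07), and the cytokines CXCL8 (2.06 ± 0.04) and IL6 (1.58 ± 0.07) also rose. By the same measure in SW1990 7 of 15 rose and 4 fell, against 23.1% and 14.4% of all genes (median 0.15, against 0.04 over all genes), with MMP1 at 1.45 ± 0.08. Likewise in KPC cells 10 of 14 rose and 1 fell, against 18.6% and 25.5% of all genes (median 0.30, against -0.04 over all genes), with Mmp13 at 0.86 ± 0.04. For the combination against RMC-6236, the collagenase MMP13 rose in PSN1 (3.03 ± 0.05), in SW1990 (2.54 ± 0.10) and in KPC cells (1.15 ± 0.04). The list as a whole had risers and fallers there: in PSN1 9 of 14 rose and 4 fell, against 24.1% and 30.1% of all genes (median 0.30, against -0.03 over all genes), in SW1990 7 of 15 rose and 6 fell, against 29.8% and 18.3% of all genes (median 0.14, against 0.04 over all genes), and in KPC cells 4 of 14 rose and 5 fell, against 20.3% and 28.5% of all genes (median -0.03, against -0.04 over all genes). Fewer genes were called in tumours: in tumours 2 of 16 rose and 0 fell, against 5.16% and 2.97% of all genes (median -0.02, against -0.005 over all genes), with Mmp3 at 2.11 ± 0.34.

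Other bZIP proteins that pair with FOS or JUN formed a list of 11 genes. With RMC-6236, in PSN1 6 of 10 rose and 3 fell, against 45.8% and 34.6% of all genes (median 0.31, against 0.08 over all genes), and in SW1990 5 of 10 rose and 3 fell, against 30.7% and 41.7% of all genes (median 0.18, against -0.06 over all genes). In the mouse tables, in KPC cells 3 of 8 rose and 1 fell, against 37.9% and 35.8% of all genes (median 0.06, against 0.02 over all genes), and in tumours 3 of 9 rose and 3 fell, against 20.3% and 19.2% of all genes (median 0.11, against 0.01 over all genes). The counts in PSN1 lie near the shares of all genes. MAFF, a small MAF protein, fell beside FOSL1 in PSN1 (-1.31 ± 0.05), SW1990 (-1.43 ± 0.07) and tumours (-0.85 ± 0.18). Maf, a large MAF protein, rose in KPC cells (1.76 ± 0.05) and tumours (0.88 ± 0.13). JDP2, a repressor that pairs with JUN, rose in SW1990 (1.09 ± 0.04). For the combination against RMC-6236, MAF rose in both human lines, by 2.04 ± 0.05 in PSN1 and 0.89 ± 0.05 in SW1990.

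A list of 20 other immediate early genes gave a background for FOS and FOSB. With RMC-6236, in PSN1 6 of 19 rose and 12 fell, against 45.8% and 34.6% of all genes (median -0.44, against 0.08 over all genes), and in SW1990 2 of 16 rose and 11 fell, against 30.7% and 41.7% of all genes (median -0.37, against -0.06 over all genes). In the mouse tables, in KPC cells 7 of 18 rose and 8 fell, against 37.9% and 35.8% of all genes (median 0.02, against 0.02 over all genes), and in tumours 2 of 19 rose and 6 fell, against 20.3% and 19.2% of all genes (median 0.06, against 0.01 over all genes). The counts in KPC cells lie near the shares of all genes. EGR1, an ERK-induced zinc finger factor, fell in SW1990 (-1.64 ± 0.06) and KPC cells (-2.45 ± 0.05), and MYC fell in PSN1 (-1.56 ± 0.02), SW1990 (-1.61 ± 0.05) and tumours (-1.24 ± 0.17). Against this, DUSP1, a phosphatase of stress kinases and ERK, rose in PSN1 (1.39 ± 0.06) and KPC cells (2.17 ± 0.05), as did KLF2 in PSN1 (2.58 ± 0.07) and the matricellular gene Ccn1 in KPC cells (2.76 ± 0.04). A list of 20 kinases and factors that act on FOS and JUN was counted too. With RMC-6236, in PSN1 5 of 19 rose and 9 fell, against 45.8% and 34.6% of all genes (median -0.08, against 0.08 over all genes), and in SW1990 3 of 19 rose and 11 fell, against 30.7% and 41.7% of all genes (median -0.18, against -0.06 over all genes). In the mouse tables, in KPC cells 5 of 19 rose and 8 fell, against 37.9% and 35.8% of all genes (median -0.11, against 0.02 over all genes), and in tumours 3 of 19 rose and 6 fell, against 20.3% and 19.2% of all genes (median -0.09, against 0.01 over all genes). MAPK3 (ERK1) was higher in PSN1 (0.85 ± 0.05) and SW1990 (0.52 ± 0.06) and the ternary complex factor Elk4 was lower in KPC cells (-0.59 ± 0.05) and tumours (-0.31 ± 0.06).

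Finally, genes whose levels were most like a member's across libraries were ranked by Pearson's r of log2(FPKM + 1), centred on the mean of each table, over the 24 libraries of the human lines and over the 28 mouse libraries. These libraries share arms, so r describes the arms as much as the genes. Human FOSL1 was closest to NOP56 (0.997), PARP1 (0.997) and POLR1B (0.997), and JUND to GABARAPL1 (0.995), PNRC1 (0.994) and TP53INP2 (0.994), while FOSL1 and JUND ran against each other (-0.980). Mouse Fosl1 was closest to Abl2 (0.968), Styk1 (0.968) and Dusp5 (0.968). Fos of mouse was closest to Nr4a1 (0.858), and both Jun (0.944) and Atf3 (0.898) had Dusp1 among their 3 closest genes. Between members, Jun and Fosl2 of mouse were at 0.924, and ATF3 and FOSL2 of human at 0.909. The other species gave different values: JUN and FOSL2 of human were at -0.432, and Atf3 and Fosl2 of mouse at 0.700. Fosl1 and Jund of mouse were at -0.551.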

How the data were processed

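Of the 67 mRNA libraries the labels list, the 52 with values in the 4 tables were used, and 15 subcutaneous KPC samples were not analysed here. Per the labels' protocols the kit keeps strand, but whether counting used strand is not given in the sources used here, so overlapping antisense genes cannot be told apart. The deposited values are FPKM per gene, made by the authors with STAR 2.5.3a and StringTie 1.3.1c after FastQC 0.11.2, per the submitters' processing notes, which list hg38 for every sample; the mouse build is not given in the sources used here. No column was left unmapped (0).

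The AP-1 genes and the other gene lists were chosen with earlier results of these data known. Values were analysed as log2(FPKM + 1) with limma 3.58.1 (R 4.3.3; eBayes with trend and robust options), 1 mean per arm, all 4 arms of a table in a fit, and p-values adjusted by Benjamini-Hochberg over all genes tested, 12567 to 13545 per table. Effects were compared between tables in joint fits with a weight per table. Listed genes named in the text are among the 4 called ones that changed most in each list and comparison. Levels were not tested across tables, and only changes within a table entered the joint fits. Alternatives were another pseudocount (0.1), no filter, rescaled libraries, a replicate block, plain eBayes, the compared arms alone, equal table weights and leaving out each library.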

Additional observations from a re-analysis of the deposited data

Results flagged for a closer look

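The effect of RMC-6236 differed between the human lines by limma's test of the difference for 5 genes. PSN1 minus SW1990 was -0.78 ± 0.05 for FOSL2, 1.50 ± 0.08 for FOS, -0.18 ± 0.04 for JUNB, 0.38 ± 0.05 for JUN and -0.31 ± 0.12 for ATF3 (log2 ± SE, n = 3 libraries per arm, 60.5% of all genes called). The JUNB value was -0.33 with rescaled libraries. The ATF3 value was -0.60 with a pseudocount of 0.1, and did not pass without PSN1 control library 1, PSN1 RMC-6236 library 1, SW1990 control library 1 or SW1990 RMC-6236 library 1 or 3 (adjusted p 0.051 to 0.11).

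The effect of tazemetostat differed between these lines for FOSL2 (-0.34 ± 0.05), FOS (-1.31 ± 0.08), JUN (-0.52 ± 0.05), JUNB (0.14 ± 0.04) and JUND (0.14 ± 0.05), where 33.7% of all genes were called. The JUND value did not pass without PSN1 control library 2, PSN1 tazemetostat library 1, SW1990 control library 1 or SW1990 tazemetostat library 2 or 3 (adjusted p 0.051 to 0.089).

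Between KPC tumours and KPC cells the effect of RMC-6236 differed for Atf3 (-1.63 ± 0.24), Jun (-1.59 ± 0.13), Fosl2 (-0.88 ± 0.13), Jund (-0.50 ± 0.15) and Junb (-0.47 ± 0.18), all lower in tumours, and that of tazemetostat for Atf3 (-0.82 ± 0.24). Fibroblast, macrophage and epithelial markers moved with RMC-6236 in tumours, and their part in these differences was not tested. The libraries on which the Junb and tazemetostat Atf3 calls depend are named in the report.

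Tazemetostat tumour 4 had 7.10 FPKM of Fosb, apart from the other tumours of its arm at 2.83 to 2.88 FPKM. It was the only such gap among 32 gene and arm groups of tumours, and chance gives about 1 in 20.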

How the results depend on the processing

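With a pseudocount of 0.1, rescaled libraries, no filter, plain eBayes, the compared arms alone, equal table weights or a replicate block, the counts of AP-1 genes called stayed within 1.5 times the reported ones except as follows. Combination against RMC-6236 in KPC cells had 5 genes called with the compared arms alone, against 3. The effect of tazemetostat differed between tumours and KPC cells for 2 genes with a pseudocount of 0.1, for 0 with equal table weights and for 2 with the replicate block, against 1 (Jun being added and Atf3 lost). The JUND difference of the RMC-6236 effect, PSN1 minus SW1990, turned to -0.14 with rescaled libraries. The cause was not tested in these cases.

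Leaving out each library gave 0 to 1 genes for the combination against RMC-6236 in tumours (1 without combination library 4) and 0 to 2 for tazemetostat in tumours minus cells (0 without tumour control library 3 or 4 or tazemetostat library 1, and 2 without tumour RMC-6236 library 2 or 3, tumour combination library 3 or KPC cell tazemetostat library 1). Of 3080 single-gene values so obtained 3022 kept their side of the threshold, 43 no longer passed and 15 newly passed. Direction reversed in 0 of the values that passed before or after. Changes of sign among values that passed in neither fit were not counted. The labels do not say whether replicate numbers pair the libraries, and no steady pairing was seen. Same-numbered libraries correlated at -0.404 to 0.391 in their deviations from arm means, over 0.1 in 2 of 18, 3 of 18, 1 of 18 and 4 of 24 pairs. The replicate block kept 207 of 208 single-gene values on their side of the threshold. FPKM carry no read totals, so what depth limits could not be given, and FOSB in SW1990 and KPC cells lay below the filter.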
